A study of Rattus norvegicus with 15 samples.

Results

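Keratins of the luminal and basal compartments of the mammary epithelium were followed in 15 mammary tumours of female Sprague-Dawley rats. The 10 listed genes were the luminal keratins Krt7, Krt8, Krt18 and Krt19, the basal keratins Krt5, Krt14, Krt15 and Krt17, and the epidermal keratins Krt10 and Krt13, chosen by name. Of these 10, 8 had a probe that could be named from its accession and 7 passed the filter for testing, out of 13832 named genes on the array and 8382 tested ones. Krt7 and Krt10 were not analysed here. The 8 listed genes with a named probe were among 28 such keratin genes on the array.

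The 3 groups differed in the zinc content of chow during early life. Dams (16 per group) and then their daughters ate chow that held 3 mg/kg zinc in the deficient group, 35 mg/kg in the adequate group, which is the control, and 180 mg/kg in the supplemented group. The diets ran from day 10 of gestation through weaning on day 21 and until day 51. All daughters, controls included, then received one 50 mg/kg intragastric dose of the carcinogen 7,12-dimethylbenz[a]anthracene (DMBA) and ate adequate chow until the tumours were taken at 180 days. Each diet had 5 tumours, described in the protocol as tubular or papillary, and each was read on 1 single-colour Agilent array. Whether the 5 tumours of a group arose in different rats is not stated, and litter was not part of the fit although the diets began with the dams. A p-value here sets a difference against the spread between tumours, which may be technical in part. One label field speaks of mammary gland at day 21 and was not followed, because the other fields give tumours at 180 days.

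Keratins are the intermediate filament proteins of epithelia, and each filament is built from pairs of 1 type I and 1 type II chain. In the mammary gland, the luminal cells that line the ducts are known for Krt8, Krt18 and Krt19, with Krt7, while the outer basal and myoepithelial cells are known for Krt5, Krt14 and Krt17. Krt10 and Krt13 mark differentiating layers of stratified epithelia. Filaments are anchored to the desmosomes that join neighbouring cells.

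Krt8 and Krt18 encode partners of 1 filament, and Krt5 encodes the basal chain whose level ran opposite to that of Krt18 below, so the 250 bases before their start sites are shown. They come from RefSeq (rat assembly GRCr8), and the set of promoters used here held 4 of the 10 genes. The stretches lie at chr7:135010340-135010589 on the minus strand for Krt8, chr7:135035918-135036167 on the plus strand for Krt18 and chr7:134730570-134730819 on the minus strand for Krt5. Capitals mark matches on either strand to the TATA motif TATAAA, the CCAAT motif, the GC box GGGCGG or the AP-1 motif TGANTCA.
Krt8: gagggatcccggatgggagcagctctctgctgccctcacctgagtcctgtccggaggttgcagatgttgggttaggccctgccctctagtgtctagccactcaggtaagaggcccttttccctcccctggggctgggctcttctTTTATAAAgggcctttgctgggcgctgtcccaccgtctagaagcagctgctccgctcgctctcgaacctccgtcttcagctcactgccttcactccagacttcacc
Krt18: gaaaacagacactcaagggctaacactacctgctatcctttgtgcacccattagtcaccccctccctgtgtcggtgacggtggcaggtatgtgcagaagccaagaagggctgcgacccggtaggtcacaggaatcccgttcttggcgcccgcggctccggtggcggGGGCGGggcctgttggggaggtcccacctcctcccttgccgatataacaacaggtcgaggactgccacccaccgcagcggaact
Krt5: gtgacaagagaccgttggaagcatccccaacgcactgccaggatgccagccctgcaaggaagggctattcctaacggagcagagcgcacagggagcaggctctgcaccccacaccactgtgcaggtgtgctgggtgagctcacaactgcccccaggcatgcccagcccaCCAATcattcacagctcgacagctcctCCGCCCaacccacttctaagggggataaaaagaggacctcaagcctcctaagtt
The Krt8 stretch held TATAAA read on both strands, as 2 overlapping matches that began 106 and 104 bases before the start site. That motif occurred in 12.9% of the 33469 promoter stretches of the same length. The Krt18 stretch held 1 match to GGGCGG, 84 bases before the start site. In the Krt5 stretch CCAAT lay 81 bases and GGGCGG, on the other strand, 54 bases before the start. CCAAT occurred in 34.0%, GGGCGG in 30.5% and TGANTCA in 6.34% of all stretches, and TGANTCA had no match in these 3. GC content was 60% for Krt8, 62% for Krt18 and 59.2% for Krt5, against a median of 51.2%.

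Each level is the log2 signal of a probe minus the 75th percentile of that array, so 1 unit is a factor of 2, and levels of different probes are not set against each other. Arrays differed in brightness: between 13854 and 24009 of 43379 spots stood well above background, and 0 were saturated. The 3 dimmest arrays were deficient replicate 4 (13854 spots), control replicate 2 (16214) and deficient replicate 1 (16679). Several of the highest and lowest keratin levels came from control replicate 2 and deficient replicate 1, and none from deficient replicate 4. Values without these 3 arrays are given for some results. The epithelial markers Epcam and Cdh1 and the mammary luminal regulator Gata3 were well above background on 15 of 15 arrays, as was the basal regulator Tp63. Esr1, the oestrogen receptor, was so on 3 arrays. The number of arrays limits the precision, and the median 95% interval of a difference between diets reached 0.51 log2 units, a factor of 1.43, to either side. Whole tumour RNA was measured, so fewer cells of a type and less RNA per cell cannot be told apart.

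No keratin differed between diets beyond the spread of the tumours. limma called 0 of 7 keratins in each of the 3 comparisons, against a background of 0% of 21015 probes called in each (lowest adjusted p over all probes = 0.444 for deficient and 1.000 for supplemented against control, and 0.615 for supplemented against deficient). At an unadjusted limma p under 0.05 there were 0 of 7 keratins in each comparison, beside 3.91%, 1.97% and 7.05% of all probes in that order. With normexp, a model-based background correction, run as planned, Krt5 and Krt19 had an unadjusted limma p under that threshold in supplemented minus control (adjusted p = 0.454 for both), as did Krt19 in supplemented minus deficient (adjusted p = 0.784). Krt8 in deficient minus control did so with slide as a block (limma adjusted p = 0.986), with array weights (0.949) and without deficient replicate 4 (0.838). Krt19 in supplemented minus control did so without control replicate 1 (0.989) or supplemented replicate 1 (1.000). After normexp as planned, the 1st percentile of the corrected signal was 107, 112, 556 and 151 in supplemented replicates 1, 3, 4 and 5. On the other arrays it lay between 53.8 and 57.6. With local backgrounds over 2 times the array median replaced by that median, it was 55.6, 55.7, 55.9 and 54.7 in those replicates. Values with normexp as planned carry this limit. For every tested keratin the ranges of the 3 diets overlapped, and the share of all probes that did so was not counted.

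**Figure D1:**
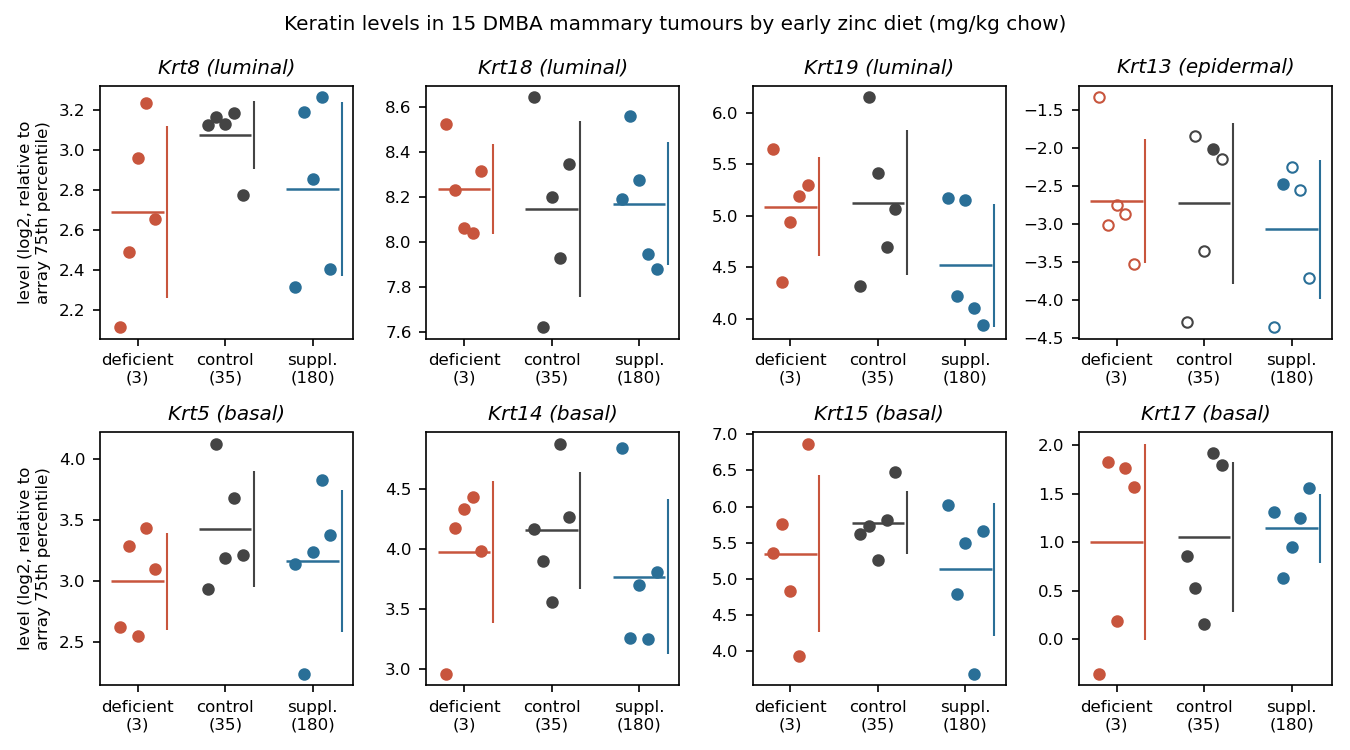
Log2 level of the 8 measured keratins (vertical axis, relative to the 75th percentile of each array) in the 5 tumours of each diet (horizontal axis, zinc in mg per kg of chow), with points for tumours in order of replicate number, horizontal lines for means and vertical lines for 1 SD. Filled points were well above background and open points were not; the 3 diets overlap for every gene, and Krt13 was above background in 2 tumours.

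Krt8, the type II chain of simple epithelia, was well above background in all 15 tumours. Its log2 levels in replicates 1 to 5 were 2.11, 2.49, 2.96, 3.23 and 2.65 in deficient tumours, 3.12, 3.16, 3.13, 3.18 and 2.77 in controls and 2.31, 3.19, 2.85, 3.26 and 2.40 in supplemented tumours. Of the controls, 4 lay within 3.12 to 3.18 and the fifth at 2.77, while both other diets spread from below to above all 5. The means were 2.69 ± 0.43 (SD, n = 5) in deficient, 3.07 ± 0.17 in control and 2.80 ± 0.44 in supplemented tumours. The deficient mean was lower than the control mean by 0.38 log2 units, with a 95% interval of the difference from -0.88 to 0.11 (limma adjusted p = 0.987). Within the 4 slides this difference ran from -1.01 to -0.03. Supplemented minus control was -0.27 (from -0.76 to 0.22) and supplemented minus deficient 0.11 (from -0.38 to 0.60).

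Krt18, the type I partner of Krt8, varied least of the 7: 22.4% of tested probes had a smaller SD over the 15 tumours. Levels of its brighter probe were 8.53, 8.23, 8.06, 8.04 and 8.32 in deficient, 8.64, 7.62, 8.20, 7.93 and 8.35 in control and 8.19, 8.56, 8.28, 7.95 and 7.88 in supplemented tumours. The control tumours alone held both the lowest value, 7.62 in replicate 2, and the highest, 8.64 in replicate 1. The means were 8.24 ± 0.20, 8.15 ± 0.39 and 8.17 ± 0.27 (SD, n = 5 each). Deficient minus control was 0.09 (95% interval from -0.33 to 0.51) and supplemented minus control 0.02 (from -0.40 to 0.45). The first turned to -0.11 with quantile normalization, -0.12 with the deposited values and -0.07 without the 3 dimmest arrays. A second Krt18 probe had means of 5.69 ± 0.32, 5.70 ± 0.25 and 5.62 ± 0.17, and its differences from control were -0.01 for deficient and -0.08 for supplemented tumours, of opposite sign to those of the first probe.

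Krt19, a type I keratin of ductal epithelia, gave the largest unadjusted contrast among the tested luminal keratins. Levels were 5.64, 4.36, 4.94, 5.20 and 5.30 in deficient, 4.31, 6.15, 5.41, 4.70 and 5.06 in control and 5.18, 4.22, 5.15, 4.10 and 3.94 in supplemented tumours. In 3 of the 5 supplemented tumours the level lay between 3.94 and 4.22, below every deficient and control tumour, and the other 2 lay at 5.15 and 5.18, within both ranges. The means were 5.09 ± 0.48, 5.13 ± 0.70 and 4.52 ± 0.60. Supplemented tumours were lower than controls by 0.61 log2 units, a factor of 1.53 (95% interval from -1.35 to 0.13; limma unadjusted p = 0.0996, adjusted p = 1.000). Leaving out 1 array moved the value between -0.81 and -0.35, the latter without control replicate 2, and normexp as planned gave -1.16. Within slides it ran from -1.46 to 0.86, positive in 1 of 4. Supplemented minus deficient was -0.57 (from -1.31 to 0.17) and deficient minus control -0.04.

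Krt5, the type II chain of basal cells, was well above background in all 15 tumours, as were the other basal keratins. Its levels were 2.62, 3.29, 2.55, 3.43 and 3.10 in deficient, 2.93, 4.12, 3.19, 3.68 and 3.21 in control and 3.14, 2.24, 3.24, 3.83 and 3.38 in supplemented tumours. The highest came from control replicate 2 and the lowest from supplemented replicate 2. Means were 3.00 ± 0.39 in deficient, 3.43 ± 0.47 in control and 3.16 ± 0.58 in supplemented tumours. Deficient minus control was -0.43 (95% interval from -1.04 to 0.19; limma adjusted p = 0.987) and lay between -0.83 and -0.20 in the 4 slides. Supplemented minus control was -0.26 (from -0.88 to 0.36). It was -0.03 without supplemented replicate 2, -0.43 without supplemented replicate 4, -0.09 without the 3 dimmest arrays and -0.72 with normexp as planned.

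Krt14, the type I partner of Krt5, spanned 1.91 log2 units. Levels were 2.96, 4.17, 4.33, 4.43 and 3.98 in deficient tumours, 4.17, 3.90, 3.55, 4.87 and 4.27 in controls and 4.84, 3.26, 3.69, 3.25 and 3.81 in supplemented tumours. Control replicate 4 and supplemented replicate 1 stood highest, and deficient replicate 1 lowest. The means of 3.98 ± 0.59, 4.15 ± 0.49 and 3.77 ± 0.65 gave differences from control of -0.18 (95% interval from -0.89 to 0.54) for deficient and -0.38 (from -1.10 to 0.33) for supplemented tumours.

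Krt15, a type I keratin of basal layers, varied most. Levels were 5.36, 5.76, 4.83, 3.94 and 6.87 in deficient tumours, 5.62, 5.73, 5.26, 5.81 and 6.47 in controls and 6.02, 4.78, 5.49, 3.69 and 5.67 in supplemented tumours. From supplemented replicate 4 to deficient replicate 5 they spanned 3.18 log2 units, a factor of 9.04, and 94.7% of tested probes had a smaller SD. The controls stayed within 5.26 to 6.47, and tumours of both other diets lay below them: deficient replicates 3 and 4 and supplemented replicates 2 and 4. SDs were 1.09 in deficient, 0.44 in control and 0.92 in supplemented tumours around means of 5.35, 5.78 and 5.13, and the difference between SDs was not tested. Supplemented minus control was -0.65, a factor of 1.57 (95% interval from -1.68 to 0.38; limma adjusted p = 1.000), and deficient minus control -0.43 (from -1.46 to 0.60). Without deficient replicate 4 the latter was -0.07, and without the 3 dimmest arrays 0.03.

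Krt17, a basal keratin also induced in wounds, had the next largest spread, with 89.5% of tested probes varying less. Levels were -0.36, 1.83, 0.18, 1.77 and 1.57 in deficient, 0.86, 0.53, 0.16, 1.92 and 1.79 in control and 1.31, 0.63, 0.95, 1.25 and 1.56 in supplemented tumours. Deficient tumours ran from -0.36 to 1.83 and controls from 0.16 to 1.92, whereas the supplemented tumours stayed within 0.63 to 1.56. This difference in spread was not tested. Means were 1.00 ± 1.01, 1.05 ± 0.78 and 1.14 ± 0.36. Deficient minus control was -0.05 (95% interval from -0.98 to 0.87) and supplemented minus control 0.09 (from -0.83 to 1.01). The first was 0.29 without deficient replicate 1 and 0.30 with array weights.

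Of the epidermal keratins, Krt13 was measured by 1 probe. It was well above background on 2 of 15 arrays, control replicate 4 and supplemented replicate 2, with levels over all tumours from -4.35 to -1.34, and was not tested.

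Over the 7 tested keratins the deficient mean was below the control mean for 6 (median difference -0.18), and the supplemented mean for 5 (median -0.27), against medians of -0.0046 and -0.0067 over all probes. Both comparisons share the 5 control tumours. All 4 basal keratins had a lower mean in deficient than in control tumours (median -0.30), but without the 3 dimmest arrays 2 of 4 did (median -0.02). Under the other scalings and without the 3 dimmest arrays the lower genes numbered 5 to 7 in both comparisons. For supplemented against deficient tumours 4 of 7 were lower (median -0.07), which became 7 with normexp as planned and 2 with bright local backgrounds replaced. None of these differences passed the test.

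**Figure D2:**
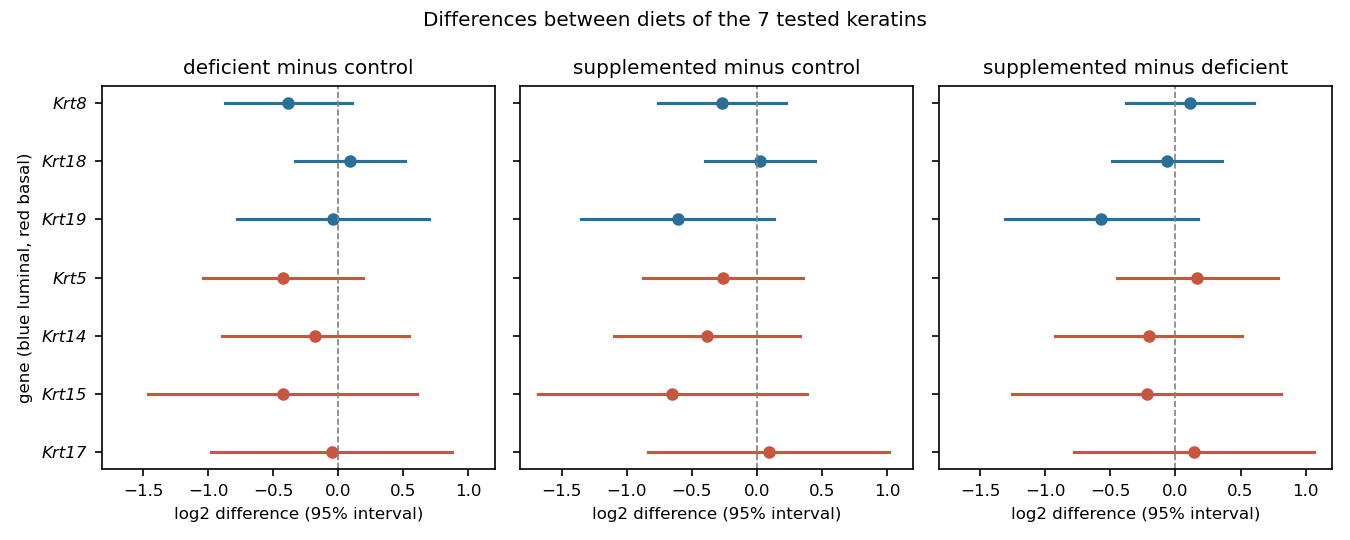
Log2 difference of each tested keratin (horizontal axis) in the 3 comparisons between diets, with points for the limma estimates from 5 tumours a diet and lines for 95% intervals; luminal genes are blue and basal genes red. Every interval includes 0, and the widest is that of Krt15.

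In 4 tumours more than 1 keratin reached its highest or lowest level. Control replicate 2 had the highest Krt5 (4.12) and Krt19 (6.15) and the lowest Krt18 (7.62). Control replicate 4 had the highest Krt14 (4.87) and Krt17 (1.92). Deficient replicate 1 had the lowest Krt8 (2.11), Krt14 (2.96) and Krt17 (-0.36), while its Krt19 (5.64) ranked second from the top. Supplemented replicate 4 combined the highest Krt8 (3.26) with the lowest Krt15 (3.69). Of these 4 tumours, control replicate 2 and deficient replicate 1 were among the 3 dimmest arrays, and the part of brightness in their profiles was not tested.

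**Figure D3:**
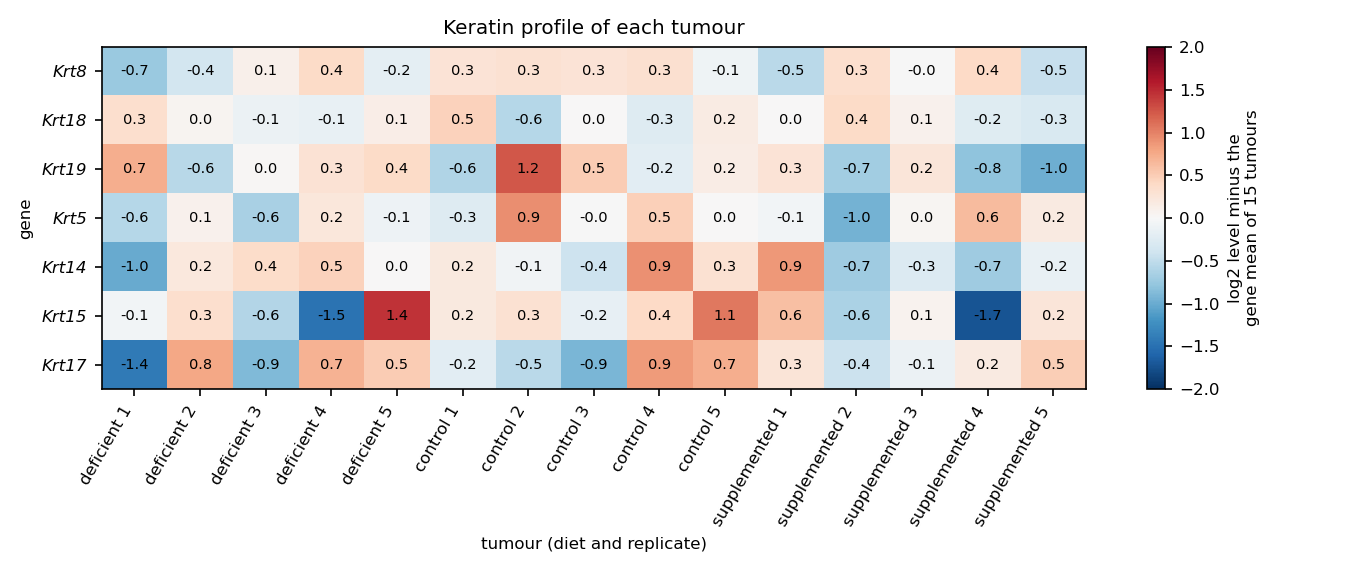
Log2 level of the 7 tested keratins (rows) in each of the 15 tumours (columns, by diet and replicate), as the difference from the mean of that gene over all tumours. Red is above and blue below the mean; high and low values occur within every diet, the furthest being Krt15 in supplemented replicate 4 at -1.73.

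Keratins of 1 compartment did not move together detectably. Over the 21 pairs of tested keratins the Pearson r across 15 tumours ran from -0.78 to 0.59 with a median of 0.04. The filament partners Krt8 and Krt18 gave r = -0.23 (rho = -0.26; two-sided permutation test with 100000 resamples, p for r = 0.411, adjusted over 21 pairs p = 0.716), and -0.19 and -0.13 within the 2 scan dates (n = 8 and 7). The r turned to 0.16 without the 3 dimmest arrays, 0.59 with normexp as planned and 0.20 with bright local backgrounds replaced. The second Krt18 probe gave 0.31 with Krt8. The partners Krt5 and Krt14 gave r = 0.24 (rho = 0.15; permutation p for r = 0.383, adjusted p = 0.716), and -0.17 and 0.46 within scan dates. All 3 luminal pairs were negative (-0.23 to -0.09), but with normexp as planned all 3 were positive (0.51 to 0.59), and without the 3 dimmest arrays Krt8 with Krt18 and Krt18 with Krt19 (0.12) were. Of the 6 basal pairs 5 were positive (-0.01 to 0.59).

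The strongest basal pair was Krt14 with Krt17, at r = 0.59 and rho = 0.61 (permutation p for r = 0.0208, adjusted over 21 pairs p = 0.219). It was 0.33 after leaving out the 2 tumours with the most extreme Krt14, 0.40 without the 3 dimmest arrays, 0.39 and 0.76 within the 2 scan dates, and 0.64 after centring within diet. With normexp background correction, in both forms tried, it passed the threshold (r = 0.67 and 0.72, adjusted permutation p = 0.0226 and 0.0418), as it did without deficient replicate 3 (r = 0.71, adjusted permutation p = 0.0495). Krt8 and Krt15 had r = -0.49 and rho = -0.57 (permutation p = 0.0640 for r, adjusted p = 0.448), -0.72 after centring within diet, and -0.67 and -0.37 within scan dates; normexp as planned turned it to 0.32.

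The luminal Krt18 and the basal Krt5 ran opposite to each other, the only pair to pass the threshold: r = -0.78 (permutation p = 0.0008, adjusted over 21 pairs p = 0.0168) and rho = -0.76 (p = 0.0015, adjusted p = 0.0315). Without the 2 tumours farthest from the median Krt18 level the r was -0.72, after centring within diet -0.80 and after centring within slide -0.77. Within scan dates it was -0.45 (n = 8) and -0.90 (n = 7). Control replicate 2 held one end, with the highest Krt5 and lowest Krt18, and supplemented replicate 2 the other, with the lowest Krt5 (2.24) and a Krt18 of 8.56. The call was lost without control replicate 2 (r = -0.69, adjusted permutation p = 0.0978), without supplemented replicate 2 (-0.74, adjusted p = 0.0617) and without deficient replicate 1 (-0.75, adjusted p = 0.0506). It was lost as well with quantile normalization (-0.59), the deposited values (-0.62) and without the 3 dimmest arrays (-0.63), and normexp gave 0.34 as planned and -0.34 with bright local backgrounds replaced. With the second Krt18 probe the r was -0.59.

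**Figure D4:**
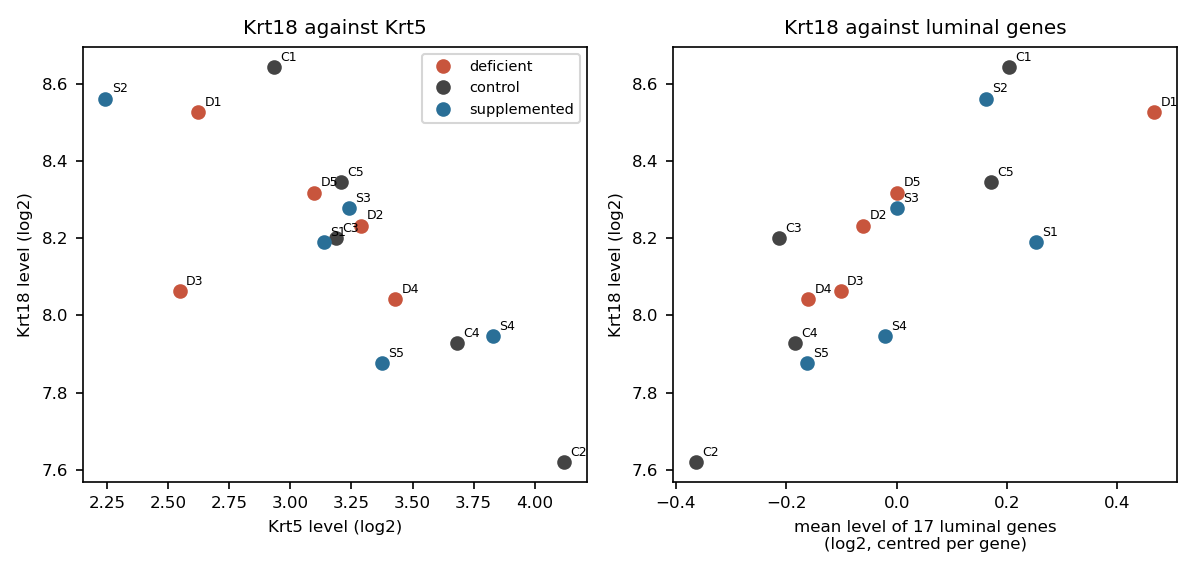
Log2 level of Krt18 (vertical axes) against that of Krt5 (left) and against the mean centred level of 17 luminal epithelial genes (right), one point per tumour, coloured by diet and lettered D, C or S with the replicate number. Krt18 is lower where Krt5 is higher (r = -0.78) and higher where the luminal genes are (r = 0.80), with control replicate 2 at one end of both.

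Genes known from the 2 compartments were followed beside the keratins. Of 22 luminal epithelial genes 17 were tested, and Krt18 ran with their mean level at r = 0.80 and rho = 0.77, with 13 of the 17 genes correlating positively. The two-sided permutation test gave p = 0.0004 for r, adjusted over 63 relations p = 0.0252, and p = 0.00136 for rho, adjusted p = 0.0624, so that r passed the threshold and rho did not. Centring within diet gave 0.81, and the 2 scan dates gave 0.61 and 0.81; without the 2 tumours with the most extreme list mean it was 0.71. The call was lost without control replicate 2 (0.74, adjusted permutation p = 0.0945), without supplemented replicate 5 (0.79, adjusted p = 0.0529), without the 3 dimmest arrays (0.69), with the deposited values (0.72) and with quantile normalization (0.52). With normexp the r was 0.96 as planned and 0.93 with bright local backgrounds replaced. The second Krt18 probe gave 0.22. Krt8 and Krt19 had r = -0.52 and -0.08 with the same list, and Krt5 -0.63 (adjusted permutation p above the threshold for each). For Krt8 it was -0.14 without the 3 dimmest arrays, -0.22 without the 2 farthest tumours and 0.42 with normexp as planned. For Krt5 it was -0.38 without the 3 dimmest arrays, -0.41 without the 2 farthest tumours, 0.24 with normexp as planned, and -0.095 and -0.81 within the 2 scan dates. With the deposited values the r was further from 0, at -0.76 for Krt5 and -0.61 for Krt8. For Krt19 it turned to 0.53 with normexp as planned.

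Basal and myoepithelial genes, 18 of 24 tested, include the contractile proteins of myoepithelium and the laminin chains of the basement membrane. Krt5 and Krt17 had r = 0.60 and 0.59 with their mean level, and in each case 17 of the 18 genes correlated positively. The adjusted permutation p over 63 relations was 0.211 for both. Within the 2 scan dates the r was 0.67 and 0.64 for Krt5, and 0.69 and 0.57 for Krt17. With the deposited values it was 0.33 for Krt5. Krt14 and Krt15 had r = 0.37 and 0.33. With the main scaling, the epidermal and desmosome lists passed the threshold with no keratin.

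Some keratins also correlated with markers of other cell types, but with the main scaling none of these relations passed the threshold by the adjusted permutation p. Krt8 had r = -0.72 (adjusted permutation p = 0.0592) and rho = -0.58 (adjusted p = 0.230) with the mean of 3 tested adipocyte genes, Adipoq, Cfd and Lpl, of 8 with a named probe. Adipoq was well above background on 6 of 15 arrays, and Lep and Cidec on 0 arrays. That mean ran from -1.29 to 2.64 in deficient, -0.81 to -0.08 in control and -0.73 to 1.94 in supplemented tumours. Deficient replicate 1 and supplemented replicate 5, with the highest adipocyte levels, had Krt8 at 2.11 and 2.40, and without the 2 farthest tumours the r was -0.40. Within the 2 scan dates it was -0.91 and -0.62, and without the 3 dimmest arrays, which include deficient replicate 1, -0.50. It was -0.76 both with the deposited values and with bright local backgrounds replaced, and -0.49 with normexp as planned. Krt18 had r = -0.64 with the mean of 8 fibroblast genes (adjusted permutation p = 0.188), among them Col1a1, Col1a2 and Dcn, and all 8 correlated negatively. It was -0.33 without the 2 farthest tumours, -0.39 and -0.69 within the 2 scan dates, and 0.087 with normexp as planned. Krt5 had r = 0.54 with the same list (adjusted permutation p = 0.346), all 8 genes correlated positively, and without the 2 farthest tumours it was 0.31. With the mean of 4 tested skeletal muscle genes Krt5 had r = 0.49 (adjusted permutation p = 0.409) and rho = 0.76 (adjusted p = 0.0624). All 4 correlated positively, and the r was 0.082 with normexp as planned. Brightness gave r = 0.43 with Krt15, 0.40 with Krt18, -0.35 with Krt19 and -0.28 with Krt5. Within the 2 scan dates it was 0.62 and -0.086 for Krt15, and 0.25 and -0.95 for Krt19. By the adjusted permutation p over all 15 tumours, none of its 7 relations with a keratin passed the threshold. The part of other cell types and of brightness in the keratin levels was not tested.

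**Figure D5:**
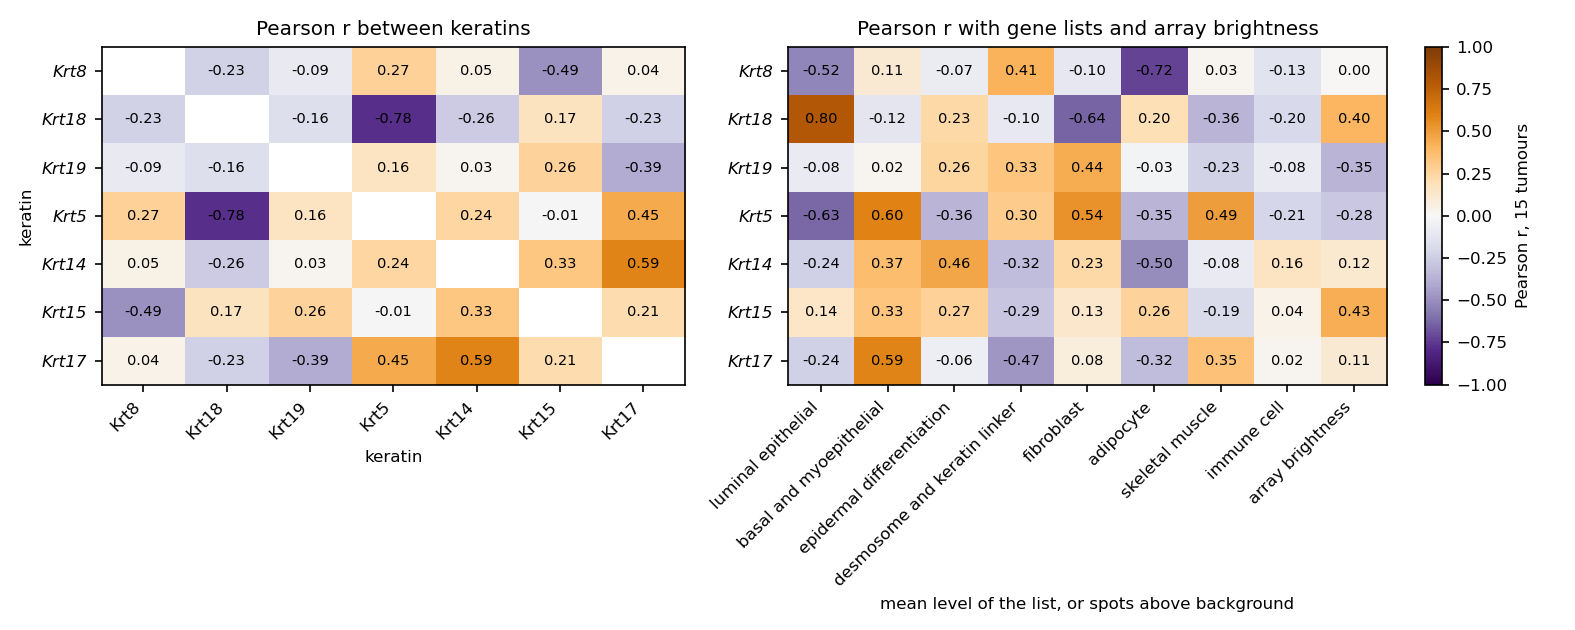
Pearson r over 15 tumours between the 7 tested keratins (left) and of each keratin with the mean level of 8 gene lists and with array brightness, the number of spots well above background (right). Cells past an adjusted permutation p of 0.05 are Krt18 with Krt5 (-0.78) and Krt18 with the luminal epithelial list (0.80).

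Between diets, limma called no gene of these lists. Of the 18 basal and myoepithelial genes 16 had a lower mean in deficient than in control tumours (median -0.19) and 15 in supplemented than in control tumours (median -0.34), against all-probe medians of -0.0046 and -0.0067, with the 5 controls shared. With the other scalings, and without the 3 dimmest arrays, the lower genes numbered 13 to 16 for deficient and 15 to 17 for supplemented tumours. Gene means of other cell type lists also differed between the same diets, with no gene called. Of adipocyte genes, 3 of 3 had a higher mean than in controls in both diets (medians 0.74 for deficient and 0.41 for supplemented tumours). The median tumour of the adipocyte list mean lay at 0.27 in deficient, -0.48 in control and -0.53 in supplemented tumours. Deficient replicate 1 stood at 2.64 and supplemented replicate 5 at 1.94. Of fibroblast genes, 6 of 8 were lower in both diets (medians -0.31 and -0.22). Both endothelial genes tested were higher in deficient tumours (median 0.40). Their part in the basal counts was not tested. Actg2, the enteric smooth muscle actin, was lower in deficient tumours by 1.05 log2 units (limma unadjusted p = 0.0203, adjusted p = 0.987), and Mylk, the myosin light chain kinase, lower in supplemented tumours by 0.94 (unadjusted p = 0.0505). Myh11, the smooth muscle myosin heavy chain, spanned 4.74 log2 units over the tumours, and Tp63 differed from control by -0.24 in deficient and -0.25 in supplemented tumours. Igfbp2 for deficient and Snai2 for supplemented tumours also had an unadjusted limma p under 0.05 against control. Snai2 was well above background on 6 arrays.

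Luminal epithelial genes were divided, 8 of 17 higher and 9 lower in deficient than in control tumours (median -0.02). Without the 3 dimmest arrays 5 were higher and 12 lower (median -0.18). In supplemented tumours 12 were higher than in controls (median 0.16). That count was 5 with normexp as planned (median -0.24) and 9 without the 3 dimmest arrays. It was 11 with bright local backgrounds replaced, with quantile normalization and with the deposited values. Elf5, a regulator of alveolar cells, was higher in deficient tumours by 1.14 (limma unadjusted p = 0.0381) but well above background on 11 arrays. Kit and Cldn4 were the other 2 luminal genes with an unadjusted limma p under 0.05 there. Of these, Kit was well above background on 8 arrays. Epcam differed from control by -0.10 and 0.08, Cd24 by 0.04 and 0.31, and Areg by -0.12 and 0.44, for deficient and supplemented tumours in turn.

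Of 11 desmosome and keratin linker genes 9 were lower in deficient than in control tumours (median -0.16) and 7 in supplemented tumours (median -0.13), and 6 of 11 with the deposited values for deficient tumours. Plec, the linker plectin, was lower in deficient tumours by 0.42 and the desmosomal plaque protein Pkp3 by 0.53 (limma unadjusted p = 0.0437 and 0.0427), neither called. Jup, plakoglobin, differed by -0.08. Of 28 epidermal differentiation genes 13 had a named probe and 6 were tested: 3 were higher and 3 lower in deficient tumours, and 2 higher and 4 lower in supplemented tumours, than in controls. Dmkn, dermokine, was well above background on 9 arrays. Ivl, the cornified envelope protein involucrin, was above background on 1 array.

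The genes whose levels were most like those of a keratin were sought among the other 8381 tested genes, over the same 15 tumours, as a description without a test. Krt18 was closest to Epn3, an endocytic adaptor of the epsin family (r = 0.89), then Zfp131 (0.87) and Arhgap12 (0.86). For Krt8 the nearest named were Atp6v1f, a subunit of the vacuolar proton pump, and Pdlim2 (0.85 each), and for Krt19 Usp54 (0.83), Padi2 (0.82) and Ryr2 (0.80). Krt5 was closest to the selenoprotein gene Selenow (0.92), Pik3r2 (0.90) and Bmyc (0.90). Krt14 came nearest to the ephrin gene Efna4 (0.80), Adgrg1 (0.79) and Popdc2 (0.75), and Krt15 to Asb16 (0.83), Lhpp (0.81) and Ndst2 (0.78). Krt17 was nearest to Pccb (0.81), to Tagln, an actin-binding protein of smooth muscle and myoepithelium (0.79), and to the laminin receptor gene Bcam (0.76). Usp54, Adgrg1 and Asb16 were well above background on 8, 5 and 6 arrays.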

How the data were processed

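Signals of 15 arrays (4 slides, 2 scan dates) were used. The scanner files that the authors deposited hold spot intensity, from which Feature Extraction had subtracted background. Its version is 11.5.1.1 per the file headers and 15.5 per the submitters' processing notes. A table of log2 values that the authors deposited covers 30002 probes, with array medians of 7.09 to 7.10 and r of 0.984 to 1.000 with the log2 median spot signal; it reads as log2 without centring by gene, and its normalization is not given in the sources used here. It was used as an alternative.

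The 75th percentile of each array was taken from its processed signals on the log2 scale; outlier spots were left out and spots of a probe averaged. Probes well above background on at least 5 arrays (21015) were tested with limma 3.58.1 in R 4.3.3, in 1 fit over the 3 diets with 12 residual degrees of freedom and Benjamini-Hochberg adjustment over these probes (threshold 0.05). Of 41012 probes 17502 (42.7%) matched 1 gene by accession through a RefSeq table. Genes were shown by the tested probe with the highest mean. Correlations used two-sided permutation tests (100000 resamples), adjusted over 21 pairs and over 63 relations with 8 list means and brightness. Scripts were tested on simulated data. The scanner files lack a mean signal column, so normexp used the median signal.

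The members and lists were chosen with earlier results of these data known. Named were all members, for each the 3 genes most alike, and of each comparison list members with the highest mean or largest SD, with Tp63, Epcam, Ivl and Esr1; other genes were named after their values were seen. Some genes that this rule or an unadjusted p would name are not reported here. Replicate numbers did not pair the tumours (mean correlation of deviations -0.0004 over 15 same-number pairs). Alternatives were normexp, quantile normalization, the deposited values, other filters, slide, scan date and replicate number as blocks, brightness as a covariate, array weights, and leaving out the 3 dimmest arrays or each array.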

Additional observations from a re-analysis of the deposited data

Results flagged for a closer look

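The level of Krt8 in control replicate 5 was 2.77, below the other 4 controls, of which the nearest stood at 3.12; its gap was 0.859 of the range of the group. Of 27 groups of 5 tumours examined this was the 1 that passed Dixon's critical value, and chance flags about 1 in 20 such groups.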

How the results depend on the processing

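No keratin difference between diets was called in 570 recomputed values (lowest limma adjusted p = 0.454); 52 had the opposite sign to the reported value, in 12 of 21 differences, and the cause was not tested. Leaving out arrays leaves fewer tumours, and brightness limits what dim probes show.

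For deficient minus control, Krt18 turned to -0.055 with normexp, -0.054 with bright local backgrounds replaced, -0.11 with quantile normalization, -0.12 with the deposited values and -0.075 without the 3 dimmest arrays. Krt17 turned to 0.13 with slide as a block, 0.30 with array weights and 0.014 without the 3 dimmest arrays, and Krt15 to 0.18 with array weights and 0.025 without the 3 dimmest arrays. For supplemented minus control, Krt18 turned to -0.49 with normexp, -0.020 with scan date as a block, -0.11 without the 3 dimmest arrays and -0.026 with both probes averaged, and Krt17 to -0.15 with normexp and -0.040 without the 3 dimmest arrays. For supplemented minus deficient, normexp gave -0.30 for Krt8, -0.35 for Krt5 and -0.051 for Krt17. With bright local backgrounds replaced, chosen after seeing the data, Krt18 turned to 0.095 and Krt15 to 0.049. Quantile normalization gave 0.18 and the deposited values 0.13 for Krt18. Krt5 turned to -0.011 with the deposited values and to -0.014 when arrays were weighted, and Krt17 to -0.29 with array weights and -0.055 without the 3 dimmest arrays.

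Leaving out each array in turn, deficient minus control ranged from -0.043 to 0.21 for Krt18, -0.24 to 0.21 for Krt19, -0.33 to 0.076 for Krt14 and -0.28 to 0.29 for Krt17. Supplemented minus control ranged from -0.11 to 0.15 for Krt18 and -0.13 to 0.31 for Krt17. Supplemented minus deficient ranged from -0.030 to 0.25 for Krt8, -0.16 to 0.0073 for Krt18, -0.57 to 0.16 for Krt15 and -0.20 to 0.35 for Krt17.

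The number of keratin pairs called, 1, became 12 with normexp, 0 with quantile normalization, the deposited values and without the 3 dimmest arrays, 2 after centring within diet, and 0 to 2 leaving out each array (0 without deficient replicate 1, control replicate 2 or supplemented replicate 2, and 2 without deficient replicate 3). After centring within diet, the r furthest from 0 were -0.80 for Krt18 with Krt5 and -0.72 for Krt8 with Krt15. The r of Krt18 with Krt5 was 0.34 with normexp, -0.34 with bright backgrounds replaced, -0.59 with quantile normalization, -0.62 with the deposited values, -0.63 without the 3 dimmest arrays, -0.45 within scan date 1 and -0.89 to -0.69 leaving out each array. The r of Krt18 with the luminal list was 0.52 with quantile normalization, 0.72 with the deposited values, 0.69 without the 3 dimmest arrays and 0.74 to 0.84 leaving out each array. It was 0.96 with normexp and 0.93 with bright backgrounds replaced. Normexp also moved the r of Krt18 with other lists. With the basal and myoepithelial list it went from -0.12 to 0.69. With the desmosome list it went from -0.10 to 0.82, and with the epidermal differentiation list from 0.23 to -0.62. Relations called with lists and brightness, 1 as reported, numbered 12 with normexp, 3 with backgrounds replaced, 2 with the deposited values, 0 with quantile normalization or without the 3 dimmest arrays, and 0 to 2 leaving out each array (0 without control replicate 2 or supplemented replicate 5, and 2 without supplemented replicate 1 or 2).

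Of all probes, array weights called 1 for supplemented against deficient and 1 over any diet, and leaving out each array called 0 to 1 for supplemented against deficient, the 1 without supplemented replicate 1. With the replicate number as a block, limma called 0 probes and 0 keratins in each comparison; 4 of 15 arrays correlated best with their own number.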

Other observations

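Beyond the listed keratins, 20 further keratin genes had a named probe, and 3 were tested: Krt1, Krt33a and Krt6c, of which the last 2 were picked out after their values were seen. Krt6c, a keratin of the family that injured and stratified epithelia use, was well above background on 15 arrays by its brighter probe, with levels from -0.68 to 5.14 and a median of 3.58. Krt33a, a hair keratin, ran from 1.70 to 2.69 on 15 arrays. Krt1, of the upper epidermis, was above background on 13 arrays and differed from control by 0.45 in deficient and -0.10 in supplemented tumours (limma adjusted p = 0.987 and 1.000). Of the rest, 15 were above background on 0 arrays and 2 on 1 array.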
